A study of Mus musculus with 2 samples.

Results

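The genes described here carry out the last steps of valine breakdown, the conversion of propionyl-CoA to succinyl-CoA, and the handling of the cobalamin (vitamin B12) cofactor that the last of these reactions needs. They are a set of 10 named genes, chosen by function and with earlier results of these arrays known, and all 10 were measured among 19938 named genes. They were read by 11 probe sets, and the gene listed as Mut appears under its current symbol, Mmut. Mmaa was included because it had drawn notice both for its difference between the arrays and for its place near Ucp1 in the genome, so the differences of the 10 genes are given as a description and support nothing by themselves.

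The tissue was inguinal white adipose tissue, the subcutaneous fat of the groin, from male C57BL/6J mice. One group (DKO, Ucp1-/-;ApoE-/-) lacked both uncoupling protein 1, the heat-producing channel of brown and beige fat mitochondria, and apolipoprotein E, and the other (ApoE-KO, ApoE-/-) lacked apolipoprotein E alone, so both groups carried the ApoE deletion. The labels name no promoter or Cre that would limit either deletion to a tissue. All mice lived at 23 °C and ate a high-fat diet for 9 weeks, which began when they were 9 weeks old. RNA of 3 mice of a genotype was mixed before hybridisation, and each mixture was read on 1 Affymetrix array, so there are 2 arrays, 1 per genotype, no measure of the spread between mice or arrays, and no test or p-value for any difference below.

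Differences are log2 intensity of the array labelled DKO minus that of the array labelled ApoE-KO. The median intensity over 35557 probe sets was 152.1 on the array labelled DKO and 157.65 on the array labelled ApoE-KO. A gene was counted as higher or lower by 2-fold only if its mean log2 intensity lay on or above 7.62, an intensity of 196.9, which is the median over named probe sets and is called the floor here. It was met by 9891 genes, whose median difference was -0.01 and of which the middle 90% lay between -0.52 and 0.76. The probe set for Ucp1 read 2229.9 on the array labelled DKO and 219 on the array labelled ApoE-KO, which goes against the label if the probes lie in the deleted part of the gene. Their position was not known for this work, so the arrays are named by their labels and every direction rests on them. Apoe, deleted in both groups, read 502 on the array labelled DKO and 589 on the array labelled ApoE-KO.

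Propionyl-CoA arises from valine, isoleucine, methionine, threonine and odd-chain fatty acids. In mitochondria it is carboxylated to methylmalonyl-CoA, turned to the other mirror form, and rearranged to succinyl-CoA, which enters the tricarboxylic acid cycle. The rearranging enzyme needs adenosylcobalamin, and inherited loss of the enzyme or of the proteins that make and load this cofactor causes methylmalonic acidaemia in humans. Differentiated adipocytes break down branched-chain amino acids and use the carbon for mitochondrial oxidation and for lipid synthesis.

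The promoter sequences of 8 of the 10 genes were found in a RefSeq table (build GRCm38.p6), while Mmadhc and Mmut were not matched. The 250 bases before the annotated start are shown for the 3 genes that hold the letters of the nuclear respiratory factor 1 motif, followed by the genes with the largest (Mcee) and the smallest (Aldh6a1) difference, which hold none in the window shown. Each is written 5′ to 3′ on the strand of its gene, and capitals mark the letters CGCNTGCGC on either strand.
Mmaa (chr8:79294962-79295211, minus strand): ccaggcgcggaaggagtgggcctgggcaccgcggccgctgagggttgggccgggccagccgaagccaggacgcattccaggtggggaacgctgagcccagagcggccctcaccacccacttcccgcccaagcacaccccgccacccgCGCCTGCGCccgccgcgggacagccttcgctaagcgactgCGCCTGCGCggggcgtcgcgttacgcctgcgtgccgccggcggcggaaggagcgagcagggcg
Pccb (chr9:101034885-101035134, minus strand): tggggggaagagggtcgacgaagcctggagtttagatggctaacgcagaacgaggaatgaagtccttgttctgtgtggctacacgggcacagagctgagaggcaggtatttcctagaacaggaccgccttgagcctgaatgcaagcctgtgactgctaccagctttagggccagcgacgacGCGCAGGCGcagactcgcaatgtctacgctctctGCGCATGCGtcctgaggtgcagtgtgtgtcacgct
Hibadh (chr6:52640301-52640550, minus strand): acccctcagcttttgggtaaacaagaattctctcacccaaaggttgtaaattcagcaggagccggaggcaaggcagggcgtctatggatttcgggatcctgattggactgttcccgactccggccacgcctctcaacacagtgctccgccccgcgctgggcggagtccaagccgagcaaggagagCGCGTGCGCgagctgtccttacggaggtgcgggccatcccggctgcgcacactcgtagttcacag
Mcee (chr7:64392372-64392621, plus strand): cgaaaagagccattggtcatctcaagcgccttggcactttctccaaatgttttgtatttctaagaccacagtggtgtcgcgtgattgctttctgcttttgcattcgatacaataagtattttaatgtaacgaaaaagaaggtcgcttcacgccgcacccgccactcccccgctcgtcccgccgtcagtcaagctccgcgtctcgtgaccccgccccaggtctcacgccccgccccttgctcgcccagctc
Aldh6a1 (chr12:84451025-84451274, minus strand): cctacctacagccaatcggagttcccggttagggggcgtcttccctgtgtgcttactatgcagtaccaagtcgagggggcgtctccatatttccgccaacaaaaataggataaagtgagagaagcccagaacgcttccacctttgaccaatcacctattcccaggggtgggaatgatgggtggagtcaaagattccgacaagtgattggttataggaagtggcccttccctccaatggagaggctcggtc

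The letters CGCNTGCGC were found in 3 of the 11 windows of these 8 genes, against 5.16% of all 32851 promoter windows of the same length in the table. By gene, that is 3 of 8 genes, against 5.86% of 27025 genes. Mmaa held them at 2 places in the window of its upstream start, beginning 103 and 63 bases before that start, and at 0 places in the window of its second annotated start, which overlaps the end of the first. Pccb held them at 2 places and Hibadh at 1. The motif is rich in G and C. The Mmaa window shown was 76.0% G and C, against 57.6% for Pccb, 60.8% for Hibadh, 54.8% for Mcee and 52.4% for Aldh6a1. The windows not shown, all without these letters, were 77.2% G and C for the second start of Mmaa, 68.0% for Hibch and 58.4% for Mmab. Those of Pcca were 64.8% and 53.6%, and the second of Aldh6a1 was 41.2%. The letters of an estrogen-related receptor element (TNAAGGTCA), of the cyclic AMP response element TGACGTCA, of the E-box CACGTG and of the TATA box (TATAAA) were in 0 of the 11 windows. They were in 1.14%, 1.55%, 6.02% and 12.4% of all windows, in that order. The half-site AGGTCA, which is part of the first of these motifs, was in 1 window each of Pcca and Aldh6a1 (14.0% of all windows). The CCAAT box (CCAAT) was in 7 of the 11 windows (33.8% of all), with 5 copies in the Mmab window, and the GC box (GGGCGG) was also in 7 (32.7% of all). All letters were searched on both strands, and a match is a description of the sequence and no evidence of binding.

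All 10 genes had a higher intensity on the array labelled DKO, by a median difference of 0.66. Among all genes above the floor, 48.2% were higher on that array. All 10 lay above the floor on both arrays. At least 2-fold differences were found for 1 of the 10, Mcee, where 2.79% of genes above the floor were at least 2-fold higher and 0.698% at least 2-fold lower. A difference of at least 1.5-fold was found for 6 of the 10, all higher, where 7.57% of genes above the floor were at least 1.5-fold higher and 3.73% lower. Because the genes were chosen with these arrays in view, no more is read from these shares. Mmaa (0.997, or 1.995-fold), Hibch (0.993) and Pcca (0.98) lay just under 2-fold, and Mcee (1.09) just over it. The count of 1 therefore moved with the scaling: it was 2 after quantile normalization, which added Mmaa, and 3 after median centring or loess, which added Mmaa and Hibch.

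**Figure D1:**
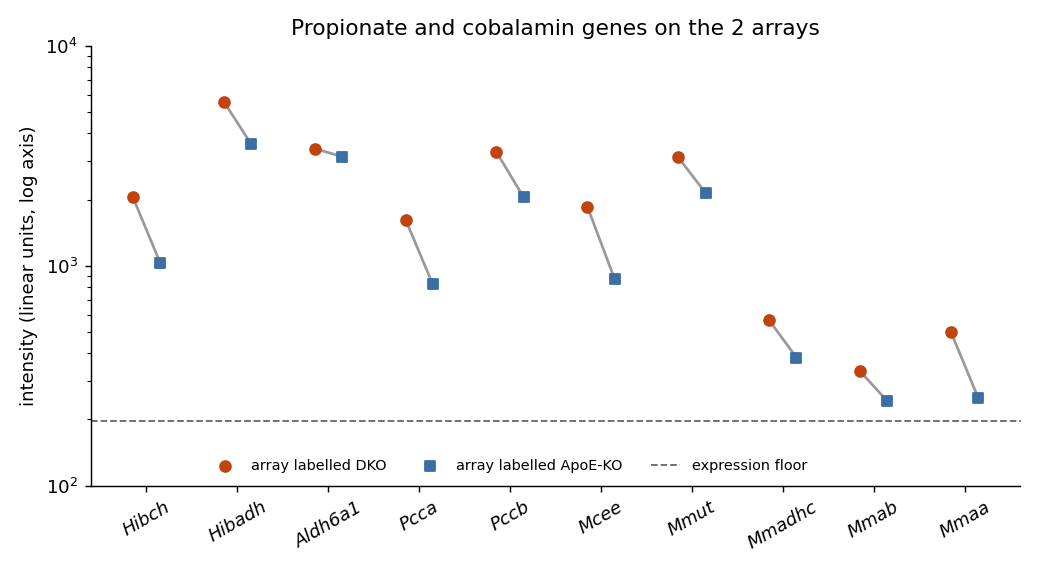
Intensity (log axis) of the 10 genes on the array labelled DKO (circles) and the array labelled ApoE-KO (squares), ordered from valine breakdown on the left to cobalamin handling on the right, with the floor of 196.9 as a dashed line. Each gene is higher on the array labelled DKO, with the smallest step at Aldh6a1, and levels of different genes cannot be compared because each probe set has its own response.

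The first 3 genes act on the carbon of valine. Hibch encodes the hydrolase that frees 3-hydroxyisobutyrate from coenzyme A, and its intensity was 2055 on the array labelled DKO and 1032 on the array labelled ApoE-KO, which differ by 0.99. Hibadh encodes the dehydrogenase that oxidises 3-hydroxyisobutyrate, a metabolite that also leaves the cell, and its main probe set read 5582 on the array labelled DKO and 3588 on the array labelled ApoE-KO (0.64). A second Hibadh probe set read 22.6 on the array labelled DKO and 26.8 on the array labelled ApoE-KO, far below the floor, with a difference of -0.25, and the mean of both probe sets gave 0.20. Aldh6a1 encodes methylmalonate-semialdehyde dehydrogenase, which makes propionyl-CoA, and read 3413 on the array labelled DKO and 3138 on the array labelled ApoE-KO (0.12). The differences of the genes of these consecutive enzymes were unequal in size. With 1 array per group it cannot be said whether these genes differed from each other. The difference of Aldh6a1 was the smallest of all 10: 66.7% of genes above the floor differed by more in either direction.

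Propionyl-CoA carboxylase is built from a biotin-carrying alpha subunit and a beta subunit. Pcca, the alpha subunit gene, read 1623 on the array labelled DKO and 823 on the array labelled ApoE-KO, which differ by 0.98. Pccb, the beta subunit gene, read 3291 on the array labelled DKO and 2045 on the array labelled ApoE-KO, which differ by 0.69. Both subunit genes were higher by more than 1.5-fold, and with 1 array per group it cannot be said whether the subunits differed from each other.

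Mcee encodes the epimerase that presents methylmalonyl-CoA in the form the mutase accepts. It read 1857 on the array labelled DKO and 872 on the array labelled ApoE-KO (1.09, or 2.13-fold), the largest difference of the 10 genes, and 2.76% of genes above the floor differed by more in either direction. Mmut encodes methylmalonyl-CoA mutase itself and read 3112 on the array labelled DKO and 2146 on the array labelled ApoE-KO (0.54, or 1.45-fold). As for the carboxylase subunits, it cannot be said with 1 array per group whether these 2 genes differed from each other.

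The other 3 genes serve the cofactor. Mmadhc encodes the protein that directs cobalamin to the cytosol or to the mitochondrion, and it read 565 on the array labelled DKO and 382 on the array labelled ApoE-KO (0.56). Mmab encodes the adenosyltransferase that makes adenosylcobalamin, and it read 331 on the array labelled DKO and 242 on the array labelled ApoE-KO (0.45). Mmaa encodes the GTP-binding chaperone that guards the loading of adenosylcobalamin onto the mutase, and it read 500 on the array labelled DKO and 250 on the array labelled ApoE-KO (0.997). Mmaa, included partly for its difference, had the largest difference of these 3 genes. Of genes above the floor, 3.51% differed by more in either direction. Its intensity on the array labelled ApoE-KO was close to the floor, and adding 50 to each intensity before the logarithm gave 0.87.

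**Figure D2:**
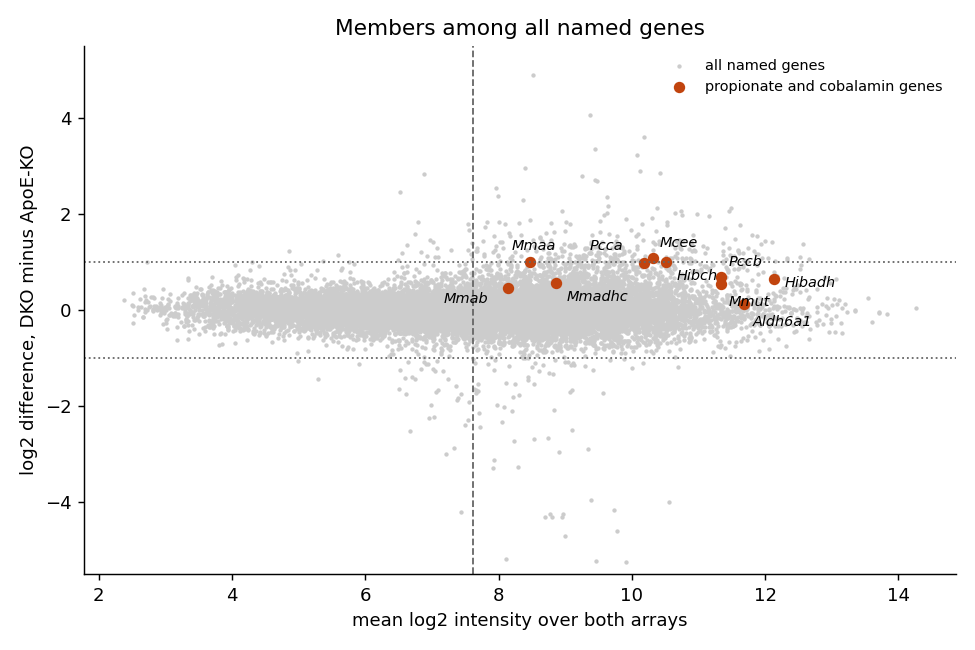
Log2 difference (array labelled DKO minus array labelled ApoE-KO) against mean log2 intensity for 19938 named genes (grey) and the 10 genes (coloured). The dashed line is the floor of 7.62 and the dotted lines mark 2-fold, and the 10 genes lie above 0 and between 0.12 and 1.09.

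Genes on either side of these steps were read from lists of the wider pathway. The succinyl-CoA ligases, which take up the product of the mutase, had larger differences than any of the 10 genes for 2 of their 3 subunits. Suclg1, the shared alpha subunit, read 3443 on the array labelled DKO and 870 on the array labelled ApoE-KO (1.99). Sucla2, the ADP-forming beta subunit, read 5844 on the array labelled DKO and 1706 on the array labelled ApoE-KO (1.78), whereas Suclg2, the GTP-forming beta subunit, differed by 0.46. The 12 measured genes of the tricarboxylic acid cycle were all higher and had a median of 1.31, and 10 passed 2-fold (2.79% of all genes above the floor were at least 2-fold higher), led by Sdhb of succinate dehydrogenase (1.62) and Dlst of the 2-oxoglutarate dehydrogenase complex (1.45). The 10 propionate and cobalamin genes, with their median of 0.66, lay below this cycle in the size of their differences.

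Upstream of propionyl-CoA, 14 further genes of valine and isoleucine breakdown had a median of 0.53. Of the 13 above the floor, 10 were higher, 3 of these at least 2-fold, and 0 were at least 2-fold lower, beside the 2.79% and 0.698% of all genes above the floor. The leading genes were Dld (1.40), a dehydrogenase subunit shared with other 2-oxoacid complexes, Bckdha of the branched-chain dehydrogenase (1.05), the enoyl-CoA hydratase gene Echs1 (1.01) and the thiolase gene Acat1 (0.79). The mitochondrial transaminase gene Bcat2, which starts the pathway and was picked out after its value was seen, stood at -0.07. The dehydrogenase genes Acadsb (-0.04) and Acad8 (0.33), the phosphatase gene Ppm1k (-0.05) and the carrier gene Slc25a44 (0.15), named in the same way, also differed by less than 1.5-fold. Of the list, 6 genes were at least 1.5-fold higher, beside 7.57% of all genes above the floor. They include the dehydrogenase subunit gene Bckdhb (0.67) and the kinase gene Bckdk (0.64), also named after their values were seen.

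Of 7 genes that feed propionyl-CoA, supply biotin or handle related acids, 5 were higher and 2 were at least 2-fold higher, again beside 2.79% of all genes above the floor. Acsf3, the mitochondrial malonyl-CoA and methylmalonyl-CoA synthetase, read 848 on the array labelled DKO and 335 on the array labelled ApoE-KO (1.34). Acss1, the mitochondrial acetyl-CoA synthetase, read 860 on the array labelled DKO and 345 on the array labelled ApoE-KO (1.32). Acss3, a mitochondrial synthetase that prefers propionate, differed by 0.03. Biotinidase (Btd, 0.49), the biotin ligase gene Hlcs (-0.18), the biotin enzyme pyruvate carboxylase (Pcx, 0.18) and the aminotransferase gene Abat (-0.14) differed by less than 1.5-fold. Btd and Hlcs, the genes of biotin supply and attachment, did not pass the 2-fold rule, and neither did the biotin-carrying subunit gene Pcca. With 1 array per group it cannot be said whether these genes differed from each other.

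Genes that take cobalamin up, process it or are linked to it had differences from -0.42 to 1.23. Of 14 measured genes, 9 lay above the floor, and the median was 0.03 over all 14 and 0.09 over these 9. Of the 9, 1 was at least 2-fold higher and 0 at least 2-fold lower, beside 2.79% and 0.698% of all genes above the floor. The transport protein gene Tcn2 stood at 0.36, its receptor gene Cd320 at 0.09, and the lysosomal exporter genes Lmbrd1 and Abcd4 at 0.02 and 0.27. Mmachc, which strips the upper ligand from cobalamin in the cytosol, read 1029 on the array labelled DKO and 575 on the array labelled ApoE-KO (0.84, or 1.79-fold). The genes of the cytosolic cobalamin enzyme read lower on the array labelled DKO: methionine synthase (Mtr) read 367 on the array labelled DKO and 490 on the array labelled ApoE-KO (-0.42), and its reductase gene Mtrr differed by -0.12, both less than 1.5-fold. The gene past 2-fold was Clybl, a mitochondrial citramalyl-CoA lyase whose loss lowers circulating vitamin B12 in humans, which read 2933 on the array labelled DKO and 1248 on the array labelled ApoE-KO (1.23). The uptake receptor genes Cubn, Amn and Lrp2 lay below the floor.

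**Figure D3:**
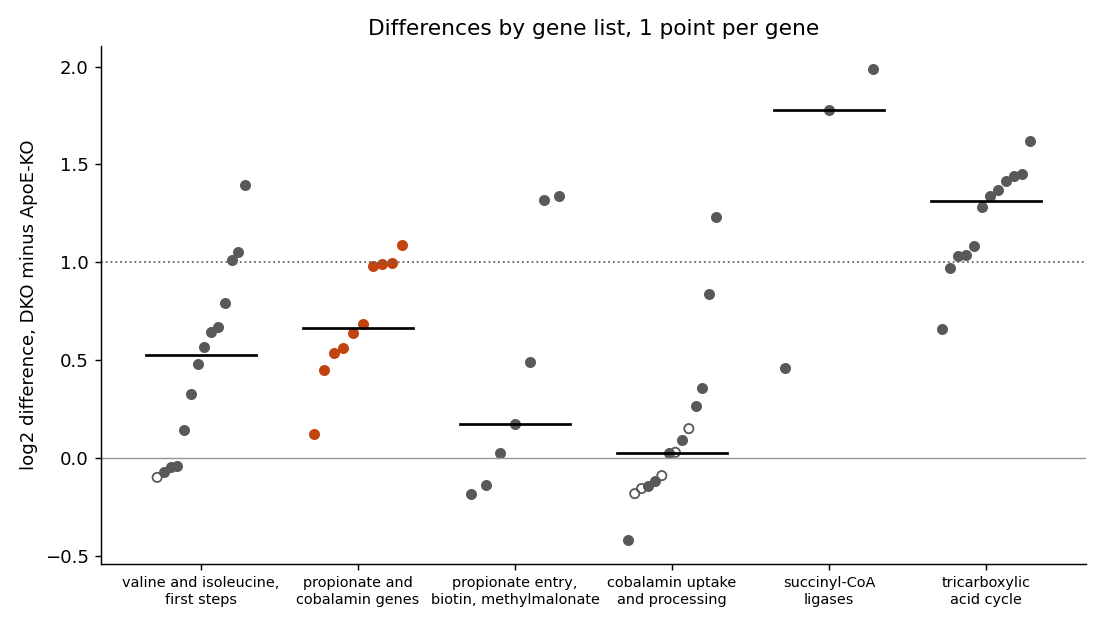
Log2 difference (array labelled DKO minus array labelled ApoE-KO) of each measured gene in 6 lists, in ascending order within a list, with the list median as a bar and genes below the floor as open circles. The dotted line marks 2-fold. The valine and isoleucine list, marked first steps, also holds later steps up to the thiolase gene Acat1. The 10 genes (coloured, median 0.66) lie above most genes of cobalamin uptake (0.03) and below most of the tricarboxylic acid cycle (1.31).

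Mmaa is the 1 gene of the 10 that lies on chromosome 8, which also carries Ucp1, and 15 measured genes lie between them in RefSeq gene order. The 9 other genes are on 9 other chromosomes, and 3 of these, Mcee on chromosome 7, Hibch on chromosome 1 and Pcca on chromosome 14, differed from Mmaa by no more than 0.1 in their log2 difference. Mmaa was included partly for its difference, so its rank among the neighbours of Ucp1 is a description and no more. Among the 20 nearest measured genes on each side of Ucp1, Mmaa had the largest difference. These 40 genes had a median of 0.03, with 22 higher and 18 lower on the array labelled DKO, and 0 of the 29 above the floor reached 2-fold in either direction, a count close to what the shares of all genes past 2-fold (2.79% higher and 0.698% lower) would give. The genes next in size were Ndufb7, a complex I subunit gene (0.67), the interleukin-27 receptor gene Il27ra (-0.59) and the lipid phosphatase gene Inpp4b (-0.52). The 15 genes between Ucp1 and Mmaa had a median of -0.07 and ranged from -0.52 to 0.22. Next to Mmaa itself, 1700011L22Rik differed by 0.03, below the floor, and Smad1, a mediator of bone morphogenetic protein signals, by -0.07. The other 6 of the 10 genes, also on other chromosomes, differed by 0.12 (Aldh6a1) to 0.69 (Pccb). Neither the place near Ucp1 nor the pathway was tested as a cause.

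**Figure D4:**
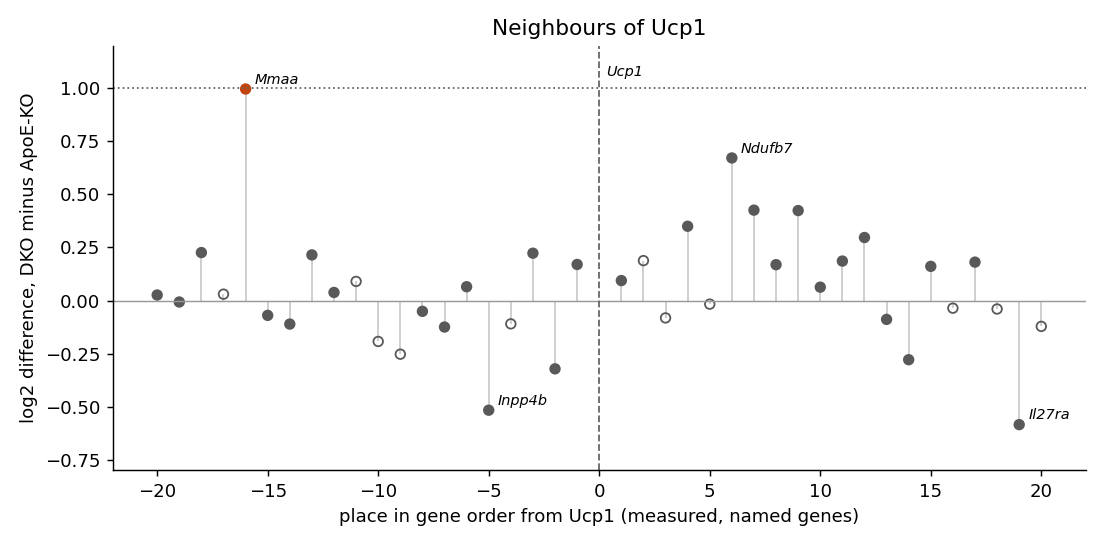
Log2 difference (array labelled DKO minus array labelled ApoE-KO) of the 20 nearest measured genes on each side of Ucp1, by place in gene order, with genes below the floor as open circles. The dotted line marks 2-fold. Mmaa (0.997), at place -16, stands above all other neighbours, of which Ndufb7 is next (0.67). It was included partly for its difference, so this rank is a description only.

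The same reading was made for the other genes, with 5 measured genes on each side, a comparison added after the values had been seen. For 7 of the 10 genes, Mmaa among them, the difference was larger than that of all 10 neighbours. The 10 neighbours of Mmaa ranged from -0.11 to 0.23. The exceptions were Pcca, Mmab and Aldh6a1. Few neighbours of Mmut (1 of 10), Hibadh (3 of 10) and Pcca (4 of 10) lay above the floor. The share of all genes that lie above their own 10 neighbours is not given, so the count has nothing to be set beside. Since 8 of the 10 genes were already among the 10% of genes above the floor with the highest differences, a member above its neighbours is a description and no more. Near Pcca lies Clybl (1.23), near Mmab lies the acetyl-CoA carboxylase gene Acacb (1.30), and near Aldh6a1 lies the coenzyme Q synthesis gene Coq6 (1.55, with its lower intensity of 169 below the floor). Mmab and the cholesterol synthesis gene Mvk are next to each other, and Mvk differed by -0.04 where Mmab differed by 0.45.

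**Figure D5:**
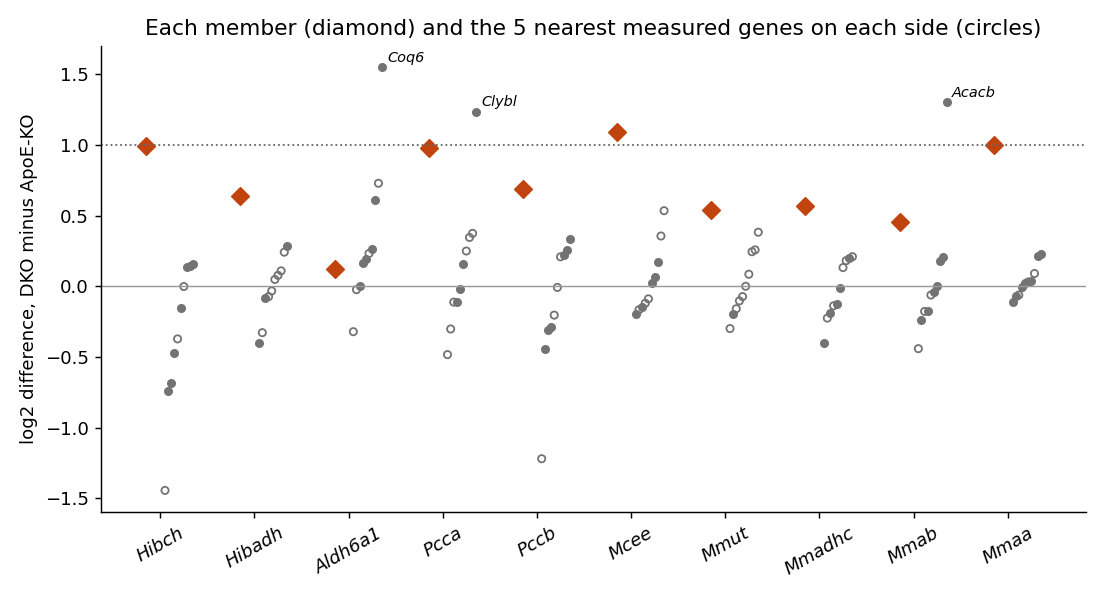
Log2 difference (array labelled DKO minus array labelled ApoE-KO) of each of the 10 genes (diamond) beside those of the 5 nearest measured genes on each side (circles, open below the floor). The dotted line marks 2-fold. The diamond lies above all its circles for 7 genes, and the circles above it include Clybl (1.23), Acacb (1.30) and Coq6 (1.55). Of the 10 genes, 8 were already among the 10% of genes above the floor with the highest differences, so this count is a description only.

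The arrays also differed in markers of cell types. All 24 skeletal muscle markers were lower on the array labelled DKO. Of these, 21 lay above the floor and all 21 were at least 2-fold lower, beside 0.698% of all genes above the floor. The 24 markers summed to 3472 on the array labelled DKO and 48970 on the array labelled ApoE-KO. Of 15 measured markers of brown and beige adipocytes, 12 were higher, 11 of them at least 2-fold, beside 2.79% of all genes above the floor. The other 3, all below the floor, were lower. The 15 markers summed to 28671 on the array labelled DKO and 4931 on the array labelled ApoE-KO. The 12 markers of mature adipocytes in general had a median of 0.05 and summed to 60224 on the array labelled DKO and 57424 on the array labelled ApoE-KO. All 6 measured B cell markers were lower (summed 2640 on the array labelled DKO and 5438 on the array labelled ApoE-KO), as were 7 of 8 macrophage markers (6669 on the array labelled DKO and 9554 on the array labelled ApoE-KO). Of 7 markers of liver and kidney, where propionate genes are active, 5 lay below the floor. The other 2 were the albumin gene Alb (1.01) and the cytochrome gene Cyp2e1 (-0.01). Cyp2e1 read 10388 on the array labelled DKO and 10436 on the array labelled ApoE-KO. With 5 markers below the floor, these 2 do not show that liver or kidney RNA was present. Each sum is weighted to the probe sets that read highest, and each probe set has its own response. No marker had an intensity of 0. The part of these differences in the values of the 10 genes was not tested, and in mixed tissue fewer cells of a type and less RNA per cell cannot be told apart.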

How the data were processed

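The authors deposited 1 linear intensity per probe set for each of 2 Affymetrix arrays, and the unit was read from the values. The sources used here do not give the background correction, summarisation or scaling of these intensities. Per the labels' protocols the RNA was extracted with Trizol and the fragmented DNA labelled with biotin. Log2 values were taken with no pseudocount. The platform annotation gave 1 gene symbol to 21789 of 35557 probe sets and none to 12147, and the 1621 with several symbols were not used. RefSeq (GRCm38.p6) matched 21698 of the named ones by Entrez identifier and served for current symbols and gene order. The build of the array design is not given, so positions are printed only for RefSeq promoters. Where a gene had more than 1 probe set, that with the highest mean stood for it. No test was possible, and the number of arrays limits precision.

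The members, lists and alternatives were chosen with earlier results of these data known. All 10 genes are named. Other lists give up to 4 names each, by size of difference among genes above the floor, or any member for the lists of cobalamin uptake and propionate entry. Of the neighbours of Ucp1, Mmaa, the genes beside it and the 4 with the largest differences are named. Promoter motifs and the neighbours of each gene were added after the values were seen. So were Bcat2, Acadsb, Acad8, Ppm1k, Slc25a44, Bckdhb, Bckdk, Mvk, Acacb and Coq6 as named genes. The arithmetic, not the 2-fold rule, was tested on simulated data. Calculations used Python 3.11.15, pandas 2.3.3 and statsmodels 0.14.6 (loess, span 0.4).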

Additional observations from a re-analysis of the deposited data

How the results depend on the processing

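With no replicates there is no spread to judge a change by, so values within 1.5 times of the reported one are taken as close. The 10 genes were recomputed under 6 alternatives (median centring, quantile normalization, loess, an offset of 50, the mean of probe sets, and the floor as the lowest intensity). All 60 values stayed above 0, and 58 were within 1.5 times. The exceptions were Aldh6a1 under quantile normalization (0.07) and Hibadh as the mean of its probe sets (0.20), the second because it averages in the probe set far below the floor. Mmaa ranged from 0.87 to 1.02, Mcee from 1.04 to 1.11, Hibch from 0.95 to 1.02 and Pcca from 0.94 to 0.998. The number of genes at least 2-fold higher, 1, became 2 under quantile normalization, 3 under median centring and 3 under loess, since 3 genes lie just under the threshold, and 6 and 0 at thresholds of 1.5-fold and 3-fold. The median of the 10 genes stayed between 0.61 and 0.70, and was 0.64 without Mmaa. The median of the neighbours of Ucp1 (0.03) stayed small but was not stable in ratio: it was 0.07 under quantile normalization, 0.065 under loess, 0.00 with the floor as the lowest value, 0.064 with 10 genes on each side and -0.07 over the genes between Ucp1 and Mmaa. Without Mmaa, an alternative chosen after seeing the data, it was 0.03. Mmab and Mmaa lay nearest to the floor on the array labelled ApoE-KO, where background adds most to a value. No paired analysis was possible because each genotype has 1 array.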

Other observations

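The leucine branch, which ends in acetyl-CoA and acetoacetate and makes no propionyl-CoA, had 4 measured genes. All 4 were higher on the array labelled DKO (median 0.36), where 48.2% of genes above the floor were higher. The branch had 0 genes past 2-fold, a count close to what the share of 2.79% of genes above the floor would give. Its enoyl-CoA hydratase gene Auh read 3128 on the array labelled DKO and 1714 on the array labelled ApoE-KO (0.87). Mccc1 (0.48) and Mccc2 (0.23), the subunit genes of methylcrotonyl-CoA carboxylase, a biotin enzyme related to propionyl-CoA carboxylase, and Ivd (0.07), the isovaleryl-CoA dehydrogenase gene, followed. The methionine cycle and transsulfuration, which surround the cytosolic cobalamin enzyme, had a median of 0.22 over 10 measured genes. Of these, 5 lay above the floor and 0 passed 2-fold, also close to the share of 2.79% of genes above the floor. The cytosolic serine hydroxymethyltransferase gene Shmt1 stood highest at 0.86, with an intensity of 302 on the array labelled DKO and 167, below the floor, on the array labelled ApoE-KO.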
